A study of Homo sapiens with 8 samples.

Results

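The genes examined were the matrix metalloproteases (MMPs), the ADAMTS proteases and the tissue inhibitors of metalloproteases (TIMPs), taken by symbol from the table of counts as every gene named MMP, ADAMTS or TIMP followed by a number. The rule found 45 of the 25369 named genes, of which 22 were MMPs, 19 were ADAMTS genes and 4 were TIMPs. Together they held 0.0575 to 0.0765% of all counts of a library. Enough reads for a test were present for 34 of the 45 genes (13 MMPs, 17 ADAMTS genes and all 4 TIMPs), 11 were too low to be tested, and 3 of those 11 (MMP20, MMP26 and MMP27) had 0 counts in all 8 libraries.

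MMPs and ADAMTS proteases are zinc-dependent enzymes that cut proteins outside the cell. MMPs are secreted or anchored at the cell surface and act on collagens, gelatin, laminin and other matrix proteins, whereas ADAMTS proteases are secreted, carry thrombospondin-type repeats and act on proteoglycans, procollagens, fibrillin-associated proteins or von Willebrand factor. Both are made as inactive precursors, and TIMPs block the active enzymes by binding at the catalytic zinc. In ovarian carcinoma these enzymes have been studied in connection with shedding, peritoneal attachment and invasion of the tumour cells.

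The cells were UWB1.289, a human ovarian cancer line that carries a deleterious BRCA1 mutation (BRCA1-null), and the same line transduced with the BRCA1 gene (BRCA1+). Each was cultured for 24 h in the vehicle DMSO, as the control, or in entinostat at 0.5 uM, a drug that blocks the histone deacetylases HDAC1 and HDAC3, which gave 4 groups of 2 poly(A) RNA libraries: BRCA1+ DMSO, BRCA1+ entinostat, BRCA1-null DMSO and BRCA1-null entinostat. All 4 groups shared the UWB1.289 background, the culture medium and the duration of treatment. Each genotype was represented by 1 line, so an effect of BRCA1 cannot be told apart from other differences that arose when the BRCA1+ line was derived, and the labels do not say whether libraries of a group came from separate cultures, so p-values measure the spread between these libraries, which may be technical.

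Total counts ranged from 31900158 to 53549893 per library. BRCA1 had 3954 to 5473 counts in the BRCA1+ libraries and 800 to 1218 in the BRCA1-null libraries, on the side that the labels give. Of 11 markers of ovarian serous carcinoma and epithelium, 10 were at 1 CPM (counts scaled to a library of 1e6, after TMM scaling) or more in each group, PAX8 among them, and WT1 was between 0.0532 and 0.420 CPM. Of 9 fibroblast markers, COL3A1, DCN and LUM were at 0 in every library, while the summed list lay between 13.6 and 18.3 CPM in BRCA1+ DMSO and 27.5 and 35.6 with entinostat, and between 39.4 and 56.0 in BRCA1-null DMSO and 58.3 and 84.1 with entinostat. COL1A1, COL1A2 and THY1 made up most of it, with group means of 4.26, 11.1 and 0.497 CPM in BRCA1+ DMSO. In BRCA1-null entinostat they were at 19.9, 30.2 and 20.9 CPM. The 5 endothelial markers, of which CDH5 was the most abundant, summed to between 9.61 and 16.3 CPM, 27.4 and 38.5, 36.9 and 54.4, and 75.2 and 93.0 in the same order of groups, with no endothelial marker at 0 in every library of a group, and the 7 leukocyte markers to between 16.7 and 17.9, 23.1 and 25.3, 27.1 and 29.7, and 30.9 and 39.3 CPM, with CD3E at 0 in both libraries of 2 groups (BRCA1+ entinostat and BRCA1-null DMSO). The most abundant leukocyte marker was CD68, with a group mean of 9.01 CPM in BRCA1+ DMSO and 28.1 in BRCA1-null entinostat. These marker sums moved with line and treatment, as did several genes below, and their part in those results was not tested.

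Sequences before the start of transcription are shown for 7 of these genes, because they differ in the elements known to bind activators of MMP genes and because the genes span the range of behaviour described below. RefSeq (GRCh38.p14) gave the 250 bases before the start for 26 of the 45 genes. MMP2, MMP9, MMP17, ADAMTS1, ADAMTS8, ADAMTS9 and TIMP2 were not matched. Capitals mark matches on either strand to TGANTCA (the AP-1 element, bound by FOS and JUN proteins), GGGCGG (the GC box), TATAAA (the TATA box) and TTCNNNGAA (the GAS element). Matches to different motifs were searched separately and may overlap. These coordinates are on GRCh38.p14, whereas gene positions elsewhere in the text are on hg19, the build of the counts. MMP7 and MMP10 are nearly silent genes, TIMP1 and MMP14 are the most abundant inhibitor and MMP by length-scaled level, TIMP3 and ADAMTS6 differed between the lines in opposite directions, and MMP11 was higher with entinostat in both lines.
MMP7 (chr11:102530748-102530997, - strand): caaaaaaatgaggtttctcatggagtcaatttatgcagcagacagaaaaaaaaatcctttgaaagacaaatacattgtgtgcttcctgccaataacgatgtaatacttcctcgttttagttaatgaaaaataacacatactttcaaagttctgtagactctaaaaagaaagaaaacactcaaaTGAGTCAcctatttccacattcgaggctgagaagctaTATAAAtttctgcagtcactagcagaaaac
MMP10 (chr11:102780629-102780878, - strand): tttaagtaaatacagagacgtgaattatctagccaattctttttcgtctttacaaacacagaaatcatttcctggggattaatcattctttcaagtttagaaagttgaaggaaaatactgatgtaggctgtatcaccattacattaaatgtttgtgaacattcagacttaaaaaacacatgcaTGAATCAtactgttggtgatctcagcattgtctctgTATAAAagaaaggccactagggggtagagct
TIMP1 (chrX:47582186-47582435, + strand): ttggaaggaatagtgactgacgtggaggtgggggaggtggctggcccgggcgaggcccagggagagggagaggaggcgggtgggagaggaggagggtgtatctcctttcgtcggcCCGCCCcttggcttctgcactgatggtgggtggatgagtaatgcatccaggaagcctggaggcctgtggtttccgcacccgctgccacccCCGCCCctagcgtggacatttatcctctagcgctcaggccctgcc
MMP14 (chr14:22836335-22836584, + strand): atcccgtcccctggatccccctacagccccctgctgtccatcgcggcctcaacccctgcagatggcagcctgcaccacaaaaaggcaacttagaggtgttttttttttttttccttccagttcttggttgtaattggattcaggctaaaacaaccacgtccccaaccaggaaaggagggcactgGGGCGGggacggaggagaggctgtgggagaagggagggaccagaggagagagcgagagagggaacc
TIMP3 (chr22:32801455-32801704, + strand): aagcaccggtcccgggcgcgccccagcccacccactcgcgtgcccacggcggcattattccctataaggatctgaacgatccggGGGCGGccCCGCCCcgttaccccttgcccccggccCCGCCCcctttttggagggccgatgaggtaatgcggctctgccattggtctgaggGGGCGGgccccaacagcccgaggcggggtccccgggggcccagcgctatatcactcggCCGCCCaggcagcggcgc
ADAMTS6 (chr5:65481921-65482170, - strand): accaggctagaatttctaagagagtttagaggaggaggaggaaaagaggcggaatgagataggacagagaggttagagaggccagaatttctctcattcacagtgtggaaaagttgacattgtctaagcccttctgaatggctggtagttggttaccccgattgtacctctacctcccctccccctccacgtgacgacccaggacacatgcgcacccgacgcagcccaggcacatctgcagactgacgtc
MMP11 (chr22:23772599-23772848, + strand): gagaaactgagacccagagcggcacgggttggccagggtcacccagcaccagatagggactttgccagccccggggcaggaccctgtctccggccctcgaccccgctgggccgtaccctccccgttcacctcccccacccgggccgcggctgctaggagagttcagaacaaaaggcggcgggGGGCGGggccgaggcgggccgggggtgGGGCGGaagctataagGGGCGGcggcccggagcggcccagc

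MMP7 and MMP10 each held 1 AP-1 match, with its first base 67 bases before the start in both, and 1 TATA box, first base 30 and 31 bases before it. TIMP3 held 5 GC boxes, MMP11 held 3, TIMP1 held 2, MMP14 held 1, and none of the 4 motifs was found in the ADAMTS6 window. Of the 26 windows, 4 held an AP-1 match (MMP7, MMP10, MMP20 and ADAMTS12) against 6.6% of all 27305 windows of the table, 18 held a GC box against 42.3%, 7 held a TATA box against 11.1%, and 0 held a GAS element against 6.78%. The 5 matched windows of the MMP cluster on 11q22 were 32.8 to 41.6% G and C, with a median of 34.4%, while the median was 69.2% over the other 21 matched genes and 58.0% over the whole table. These matches describe letters in a window and do not show binding.

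Levels scaled by gene length (RPKM, the CPM per kilobase of gene) placed TIMP1 first, whereas TIMP4 ranked 23 to 28 of the 45 genes by group. TIMP1, which blocks most secreted MMPs, led all 4 groups, at 52.6 ± 1.11 RPKM in BRCA1+ DMSO, 51.2 ± 1.59 in BRCA1+ entinostat, 61.3 ± 2.46 in BRCA1-null DMSO and 68.0 ± 4.65 in BRCA1-null entinostat (mean ± SD, n = 2 libraries, as for the other group means). In BRCA1+ DMSO the next genes were ADAMTS12 at 24.6 ± 1.72 and TIMP2 at 22.7 ± 0.984 RPKM, whose libraries overlapped, followed by MMP14 at 18.2 ± 2.71. In BRCA1-null DMSO the order was TIMP2 at 45.2 ± 2.46, MMP14 at 30.1 ± 0.165 and MMP2 at 11.6 ± 0.251, with no overlap between these 3, then MMP15, ADAMTS12 and ADAMTS1 at 9.79 to 10.9 RPKM, each overlapping the next. MMP2 ranked 25 of the 45 genes in BRCA1+ DMSO and 4 in BRCA1-null DMSO.

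Summed over each family, the MMPs came to 35.5 ± 2.13 RPKM in BRCA1+ DMSO, 45.5 ± 0.235 in BRCA1+ entinostat, 63.8 ± 0.511 in BRCA1-null DMSO and 71.2 ± 1.36 in BRCA1-null entinostat, of which MMP14 alone gave 43.2 to 51.2%. ADAMTS genes summed to 53.2 ± 1.64, 45.3 ± 0.643, 42.4 ± 0.558 and 36.4 ± 2.40 RPKM in the same order, with 24.9 to 51.9% from ADAMTS12. Without ADAMTS12 the sums were 28.7 ± 3.35, 21.8 ± 1.71, 31.8 ± 0.583 and 26.1 ± 0.973 RPKM, with the BRCA1-null means above the BRCA1+ means, so the lower ADAMTS sum of BRCA1-null cells rested on that gene. TIMPs summed to 83.3 ± 1.5, 92.7 ± 1.64, 109 ± 5.66 and 126 ± 6.07 RPKM. These sums are given as description, with no test.

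**Figure D1:**
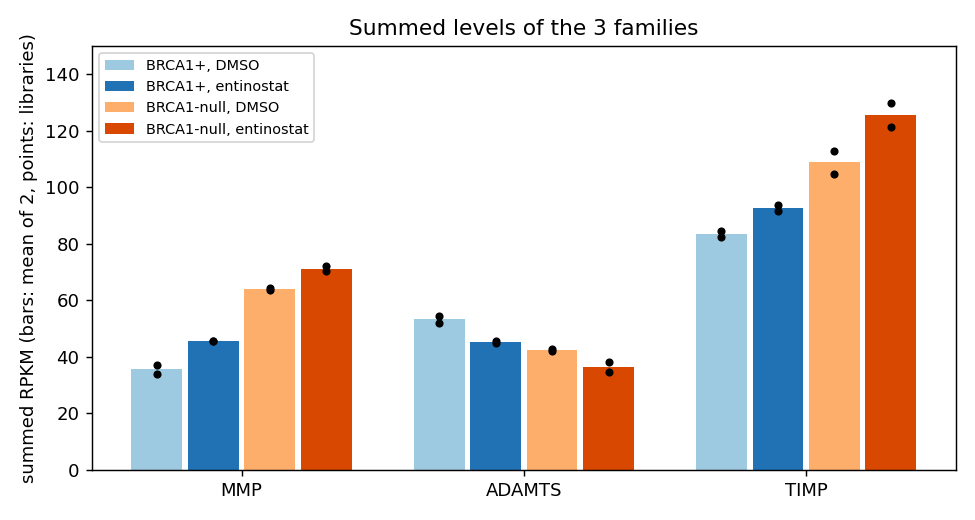
Summed RPKM of the MMP, ADAMTS and TIMP families (vertical axis from 0) in the 4 groups, with bars for the mean of 2 libraries and points for the libraries. MMP sums run from 35.5 in BRCA1+ DMSO to 71.2 in BRCA1-null entinostat, and ADAMTS sums from 53.2 down to 36.4.

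**Figure D2:**
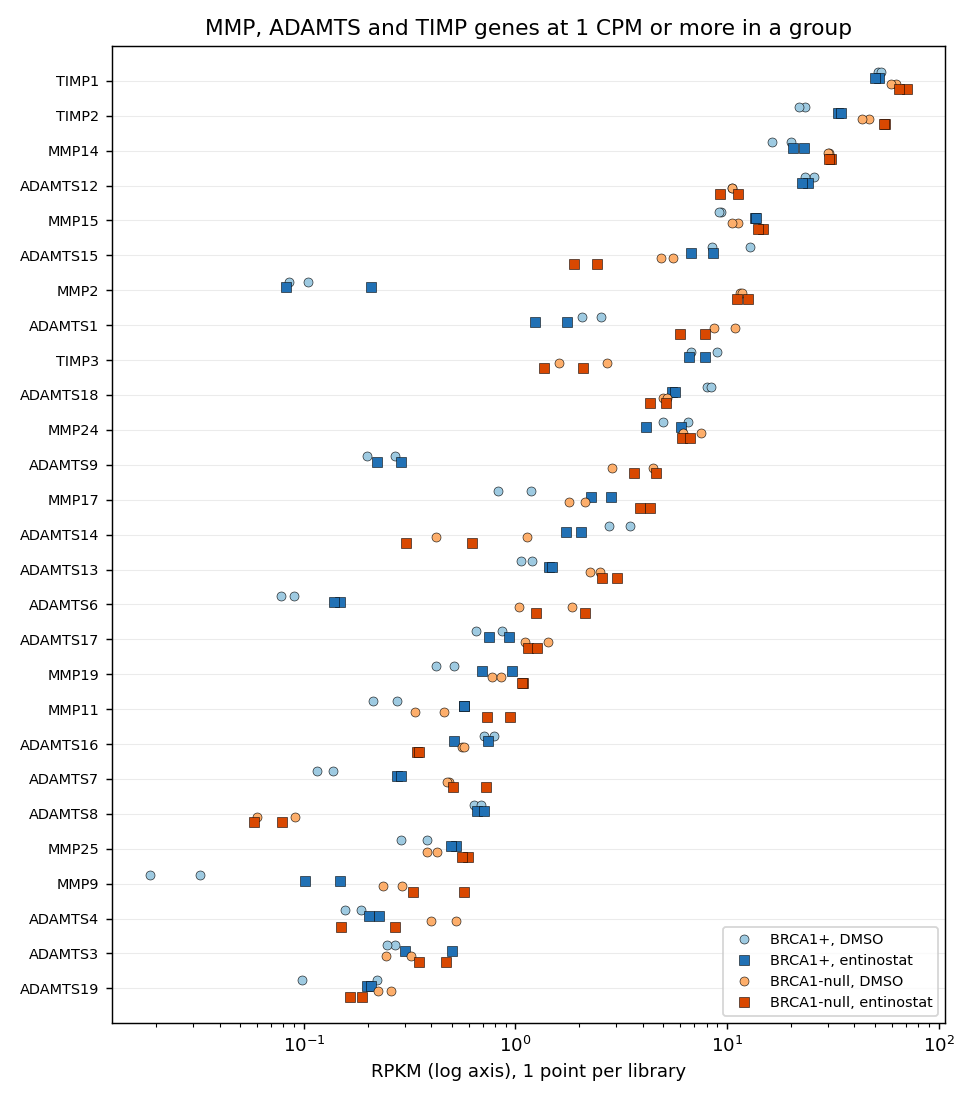
RPKM on a log axis, with 1 point for each library, for the 27 genes with a mean of at least 1 CPM in some group, ordered by their highest library. TIMP1 is at the top in all groups, and MMP2, ADAMTS6 and ADAMTS9 show the widest gap between the circles and squares of the BRCA1+ libraries (blue) and those of the BRCA1-null libraries (orange).

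The lines were compared first in DMSO and then in entinostat, to see which protease and inhibitor genes differ with BRCA1 status and whether they do so in treated cells as well. In DMSO 22 of 34 tested genes differed (64.7%), 16 higher and 6 lower in BRCA1-null cells, beside 42.2% of all 17714 genes tested (21.1% higher and 21% lower). In entinostat 20 of 34 differed (58.8%), 14 higher and 6 lower, beside 39.4% of all genes (20.5% higher and 18.9% lower). Every call among the MMPs was higher in BRCA1-null cells, 6 of 13 in each comparison (46.2%, near the shares over all genes). In entinostat these calls included MMP1 and MMP7, which had 0 counts in BRCA1+ entinostat and could only be called higher. The ADAMTS genes split into 8 higher and 5 lower in DMSO and 6 higher and 5 lower in entinostat. The median log2 difference of the 34 genes was 0.76 in DMSO and 0.45 in entinostat, against 0.01 and 0.02 over all genes. Both comparisons called 16 of the same genes, all 16 in the same direction (72.7% of the DMSO calls and 80.0% of the entinostat calls), beside 76.3% and 81.7% for the calls over all genes. Over all genes, 5697 of the 5700 shared calls also had the same direction. Differences are given on the log2 scale with a standard error, from 2 libraries per group, followed by the FDR, the p-value adjusted by Benjamini-Hochberg over all genes tested. The standard error was derived as the size of the log2 difference divided by the square root of the F statistic of the edgeR test. A level in bulk RNA does not separate fewer expressing cells from less RNA per cell. Among all genes, the libraries of the 2 lines did not overlap for 70.9% in DMSO and 69.5% in entinostat, so lack of overlap alone sets no gene apart.

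**Figure D3:**
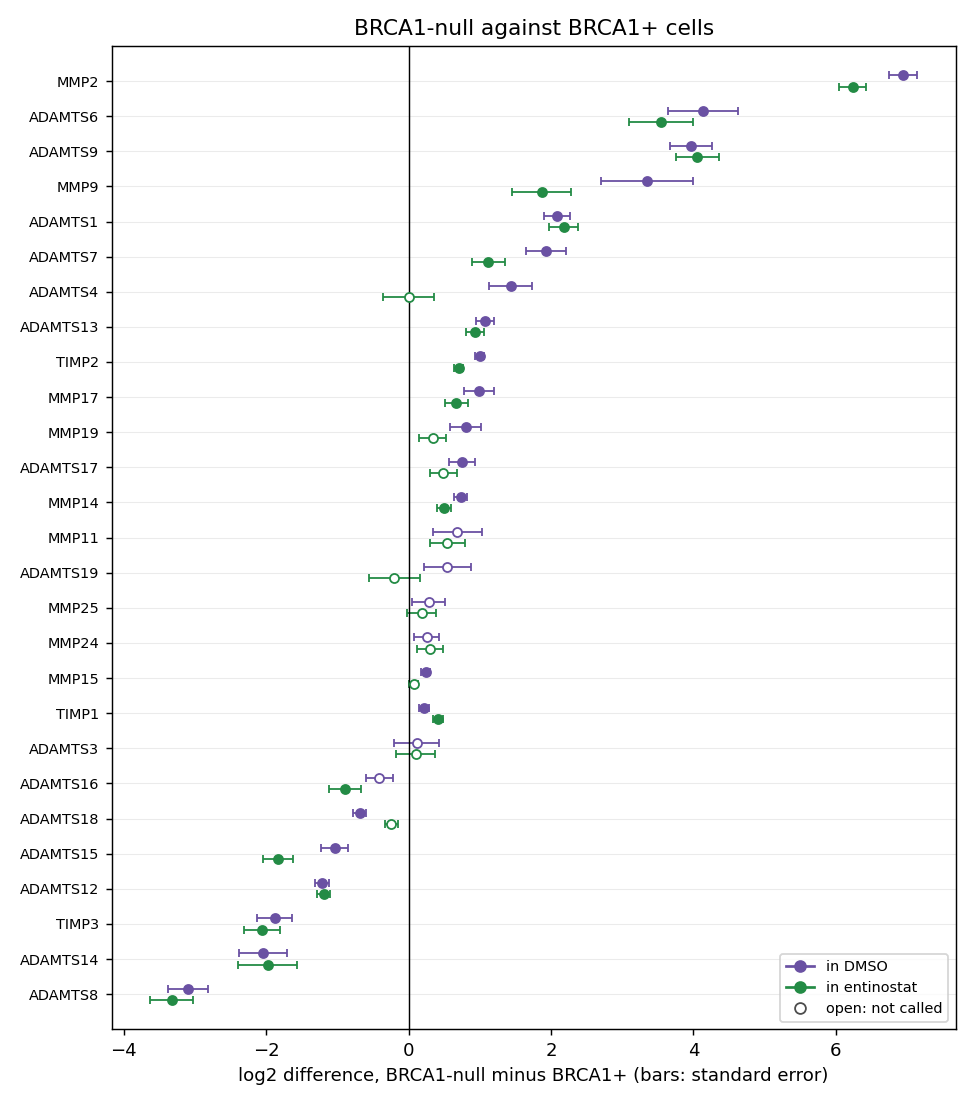
Log2 difference between BRCA1-null and BRCA1+ cells with its standard error, in DMSO (purple) and in entinostat (green), for the 27 genes at 1 CPM or more in a group, where filled points passed an FDR of 0.05. MMP2 lies at 6.94 and 6.24, and ADAMTS8 at the other end at -3.10 and -3.33.

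Among the 34 tested genes the largest difference in DMSO was that of a gelatinase. MMP2, also called gelatinase A (chr16:55513081-55540586), was at 0.400 and 0.327 CPM in the BRCA1+ DMSO libraries and 0.315 and 0.798 with entinostat, and at 44.0 and 45.4 in the BRCA1-null DMSO libraries and 48.0 and 43.0 with entinostat. It was near absent in all 4 BRCA1+ libraries and abundant in all 4 BRCA1-null libraries. Its log2 difference was 6.94 ± 0.20 (FDR 1.06e-07) in DMSO and 6.24 ± 0.19 (FDR 1.31e-07) in entinostat, a 123-fold and a 75.5-fold higher level. Over the 15 alternatives the entinostat value ran from 5.82 to 7.16 on the log2 scale, the highest (143-fold) without BRCA1+ entinostat replicate 2. MMP9, the other gelatinase, was far lower, at 0.0750 and 0.0436 CPM in the BRCA1+ DMSO libraries and 0.347 and 0.237 with entinostat, and at 0.549 and 0.681 in the BRCA1-null DMSO libraries and 0.768 and 1.34 with entinostat. Its BRCA1-null libraries were all above its BRCA1+ libraries, with a log2 difference of 3.35 ± 0.64 (FDR 0.00253) in DMSO and 1.87 ± 0.41 (FDR 0.00556) in entinostat. The DMSO value rested on 5 counts in BRCA1+ cells against 62 in BRCA1-null cells, a ratio of 10.7 with a 95% counting interval of 4.33 to 34.0, and the entinostat call was lost without BRCA1+ entinostat replicate 2 (FDR 0.0757).

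Membrane-type MMPs showed smaller differences. MMP14, which activates the MMP2 precursor at the cell surface with TIMP2 as the bridge, was the most abundant MMP by RPKM in each group, at 72.2 and 58.4 CPM in the BRCA1+ DMSO libraries and 83.1 and 73.7 with entinostat, and at 109 and 108 in the BRCA1-null DMSO libraries and 111 and 109 with entinostat. All BRCA1-null libraries were above all BRCA1+ libraries, by a log2 difference of 0.73 in DMSO and 0.50 in entinostat. MMP15, a close relative of MMP14, was at 41.7 and 40.5 CPM in the BRCA1+ DMSO libraries and 60.2 and 60.9 with entinostat, and at 50.2 and 46.9 in the BRCA1-null DMSO libraries and 65.4 and 62.1 with entinostat. It was higher in the BRCA1-null line by 0.24 in DMSO, a call lost without BRCA1+ control replicate 2 or BRCA1-null control replicate 1 (FDR up to 0.0872), and was not called in entinostat (0.07). MMP17, which is held at the surface by a lipid anchor, was at 2.85 and 1.98 CPM in the BRCA1+ DMSO libraries and 5.46 and 6.79 with entinostat, and at 4.31 and 5.13 in the BRCA1-null DMSO libraries and 9.36 and 10.4 with entinostat. Its line difference was 0.99 in DMSO and 0.67 in entinostat, and the calls were lost without BRCA1+ control replicate 2 in DMSO (FDR 0.0555) and without BRCA1+ entinostat replicate 1 or BRCA1-null entinostat replicate 2 in entinostat (FDR up to 0.0758).

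MMP19, a secreted enzyme active on basement membrane proteins, was at 1.43 and 1.74 CPM in the BRCA1+ DMSO libraries and 2.37 and 3.28 with entinostat, and at 2.64 and 2.91 in the BRCA1-null DMSO libraries and 3.67 and 3.64 with entinostat. It was higher in the BRCA1-null line under DMSO by 0.80, a call lost without BRCA1+ control replicate 1 or BRCA1-null control replicate 2 (FDR up to 0.0971). It overlaps TMEM198B on the opposite strand, which had 231 to 685 counts against 57 to 172 for MMP19. Members of this family at 1 CPM or more that were called in no comparison were the membrane-type MMP24, at 22.2 to 29.7 CPM by group mean, and MMP25, at 1.19 to 2.05 CPM. MMP24 overlaps MMP24-AS1 on the opposite strand (790 to 1241 counts), and since the handling of strand is not given in the sources used here, the reads of such pairs cannot be told apart.

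Among the ADAMTS proteases that cut the proteoglycans aggrecan and versican, ADAMTS1, ADAMTS4, ADAMTS5 and ADAMTS9 were higher and ADAMTS8 and ADAMTS15 lower in BRCA1-null cells in DMSO. ADAMTS9 (chr3:64501331-64673365) was at 1.98 and 1.46 CPM in the BRCA1+ DMSO libraries and 2.11 and 1.62 with entinostat, and at 32.7 and 20.9 in the BRCA1-null DMSO libraries and 33.9 and 26.6 with entinostat. Its BRCA1-null libraries were all far above every BRCA1+ library, and the log2 difference was 3.96 ± 0.30 (FDR 1.50e-05) in DMSO and 4.05 ± 0.30 (FDR 1.44e-05) in entinostat. ADAMTS1 was at 9.58 and 11.9 CPM in the BRCA1+ DMSO libraries and 5.74 and 8.19 with entinostat, and at 40.4 and 50.7 in the BRCA1-null DMSO libraries and 28.0 and 36.6 with entinostat. The line difference was 2.08 ± 0.19 (FDR 3.57e-05) in DMSO and 2.18 ± 0.21 (FDR 5.42e-05) in entinostat, with no overlap between lines. ADAMTS9 contains LOC101929335 on the opposite strand, which had 1 to 80 counts against 67 to 1590.

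ADAMTS4, an aggrecanase, was low, at 0.675 and 0.806 CPM in the BRCA1+ DMSO libraries and 0.978 and 0.884 with entinostat, and at 1.74 and 2.26 in the BRCA1-null DMSO libraries and 1.17 and 0.646 with entinostat. It was higher in BRCA1-null DMSO cells by 1.44 ± 0.30 (FDR 0.00451), while in entinostat the lines overlapped and the log2 difference was 0.0025 ± 0.36. ADAMTS5, the other main aggrecanase, stayed under 1 CPM with 3 to 35 counts, and was higher in BRCA1-null DMSO cells by 2.36 ± 0.61 (FDR 0.0123), from 61 counts against 10, a ratio of 5.25 with a 95% counting interval of 2.67 to 11.5. It had enough reads for a test only through BRCA1-null libraries, so this FDR is given as description. The ADAMTS5 log2 difference was 3.17 without BRCA1+ control replicate 1, and the call was lost without BRCA1+ control replicate 2 or BRCA1-null control replicate 1 (FDR up to 0.106).

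ADAMTS8 was at 2.33 and 2.51 CPM in the BRCA1+ DMSO libraries and 2.4 and 2.61 with entinostat, and at 0.220 and 0.331 in the BRCA1-null DMSO libraries and 0.213 and 0.287 with entinostat. All BRCA1-null libraries were below all BRCA1+ libraries, with a log2 difference of -3.10 ± 0.28 (FDR 3.93e-05) in DMSO and -3.33 ± 0.30 (FDR 4.26e-05) in entinostat. ADAMTS15 was at 48.3 and 72.6 CPM in the BRCA1+ DMSO libraries and 38.4 and 48.5 with entinostat, and at 31.5 and 27.6 in the BRCA1-null DMSO libraries and 13.7 and 10.7 with entinostat. It was lower in BRCA1-null cells, at -1.04 ± 0.19 (FDR 0.00224) in DMSO and -1.83 ± 0.21 (FDR 0.000176) in entinostat, and its highest library, BRCA1+ control replicate 2, stood well above the other library of that group. ADAMTS8 and ADAMTS15 are neighbours on chromosome 11 on opposite strands, 20330 bases apart, and both were lower. ADAMTS1 and ADAMTS5 are neighbours on chromosome 21 on the same strand, 72503 bases apart, and both were higher in DMSO, while in entinostat ADAMTS5 was not called.

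Of the fibrillin-associated proteases, ADAMTS6 (chr5:64444563-64777704) showed the widest gap, at 0.650 and 0.566 CPM in the BRCA1+ DMSO libraries and 1.07 and 1.01 with entinostat, and at 7.54 and 13.5 in the BRCA1-null DMSO libraries and 9.04 and 15.4 with entinostat. The BRCA1-null replicates differed from each other, with replicate 2 the higher one under both treatments, and both were well above the BRCA1+ libraries, with a log2 difference of 4.13 ± 0.49 (FDR 0.000192) in DMSO and 3.55 ± 0.45 (FDR 0.000281) in entinostat. ADAMTS17 was at 4.1 and 5.47 CPM in the BRCA1+ DMSO libraries and 4.76 and 5.91 with entinostat, and at 7.03 and 9.05 in the BRCA1-null DMSO libraries and 7.23 and 8.0 with entinostat. It was higher in the BRCA1-null line under DMSO by 0.75, a call lost without BRCA1+ control replicate 1 or BRCA1-null control replicate 2 (FDR up to 0.0820). ADAMTS10, the closest relative of ADAMTS6, stayed under 1 CPM with 0 to 19 counts, and was higher in the BRCA1-null line under entinostat by 2.36 ± 0.60 (FDR 0.00731), from 36 counts against 6, a ratio of 5.29 with a 95% counting interval of 2.21 to 15.3. It had enough reads for a test only through the BRCA1-null entinostat libraries, so this FDR is given as description. The ADAMTS10 call was lost without BRCA1+ entinostat replicate 2 and with DESeq2 (FDR up to 0.173).

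ADAMTS12 and its relative ADAMTS7 both cut cartilage oligomeric matrix protein, and they differed in opposite directions. ADAMTS12, the most abundant ADAMTS gene by RPKM in each group, was at 128 and 116 CPM in the BRCA1+ DMSO libraries and 120 and 113 with entinostat, and at 52.5 and 52.3 in the BRCA1-null DMSO libraries and 45.9 and 56.0 with entinostat. Every BRCA1-null library was below every BRCA1+ library, with a log2 difference of -1.22 ± 0.094 (FDR 1.70e-05) in DMSO and -1.19 ± 0.095 (FDR 2.11e-05) in entinostat. ADAMTS7 was at 0.750 and 0.632 CPM in the BRCA1+ DMSO libraries and 1.51 and 1.57 with entinostat, and at 2.66 and 2.61 in the BRCA1-null DMSO libraries and 2.79 and 4.0 with entinostat. It was higher in the BRCA1-null line by 1.93 ± 0.28 (FDR 0.000608) in DMSO and 1.12 ± 0.23 (FDR 0.00452) in entinostat, but a closely similar copy, ADAMTS7P1, may share its reads, so its level is uncertain.

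ADAMTS14, which trims the amino-terminal propeptide from procollagen, was at 18.3 and 14.6 CPM in the BRCA1+ DMSO libraries and 10.7 and 9.1 with entinostat, and at 6.0 and 2.21 in the BRCA1-null DMSO libraries and 3.28 and 1.6 with entinostat. Replicate 1 was the higher library in all 4 groups, and the BRCA1-null replicates stood furthest apart from each other in proportion. The BRCA1-null libraries lay below the BRCA1+ libraries. The log2 difference was -2.04 ± 0.34 (FDR 0.00132) in DMSO and -1.98 ± 0.41 (FDR 0.00466) in entinostat. In DMSO it was -2.87 without BRCA1-null control replicate 1 and -1.45 without BRCA1-null control replicate 2. In entinostat it ran from -2.61, without BRCA1-null entinostat replicate 1, to -1.58 over the 15 alternatives, and the calls were kept. ADAMTS3, of the same subgroup, was called in no comparison, at 1.51 to 2.38 CPM by group mean, and ADAMTS2, the third, had 1 to 11 counts and was not tested. ADAMTS13, which cuts von Willebrand factor, was at 6.3 and 5.6 CPM in the BRCA1+ DMSO libraries and 7.6 and 7.78 with entinostat, and at 11.8 and 13.2 in the BRCA1-null DMSO libraries and 15.9 and 13.5 with entinostat. Its line difference was 1.08 ± 0.13 (FDR 0.000202) in DMSO and 0.94 in entinostat, and it overlaps REXO4 on the opposite strand, which had 2517 to 5718 counts against 241 to 744.

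ADAMTS18, whose substrates are less well known, was at 47.4 and 49.9 CPM in the BRCA1+ DMSO libraries and 32.4 and 33.7 with entinostat, and at 29.5 and 30.9 in the BRCA1-null DMSO libraries and 25.5 and 30.5 with entinostat. It was lower in BRCA1-null cells in DMSO, at -0.69 on the log2 scale, and was not called in entinostat. ADAMTS16, its closest relative, was at 3.53 and 3.94 CPM in the BRCA1+ DMSO libraries and 2.55 and 3.69 with entinostat, and at 2.79 and 2.83 in the BRCA1-null DMSO libraries and 1.71 and 1.75 with entinostat. It was called only between the lines in entinostat, at -0.89 on the log2 scale, and the call was lost without BRCA1+ entinostat replicate 2 or BRCA1-null entinostat replicate 1 (FDR up to 0.163). ADAMTS19 was called in no comparison, at 0.817 to 1.23 CPM by group mean, and ADAMTS20 had 0 to 6 counts and was not tested.

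The inhibitors did not move together. TIMP1 (chrX:47441690-47446190) was at 47.5 and 48.9 CPM in the BRCA1+ DMSO libraries and 47.9 and 45.8 with entinostat, and at 57.7 and 54.5 in the BRCA1-null DMSO libraries and 65.3 and 59.3 with entinostat. It was higher in the BRCA1-null line by 0.22 ± 0.072 (FDR 0.0355) in DMSO and 0.41 ± 0.072 (FDR 0.00176) in entinostat, and the DMSO call was lost in 9 of 15 alternatives (largest FDR 0.132), among them leaving out any 1 of the 4 DMSO libraries or either BRCA1+ entinostat library. TIMP2, which also bridges MMP14 and the MMP2 precursor, was at 85.4 and 80.3 CPM in the BRCA1+ DMSO libraries and 122 and 127 with entinostat, and at 172 and 159 in the BRCA1-null DMSO libraries and 205 and 201 with entinostat. Its libraries fell into 4 separate ranges, in the order in which the groups are named here, and the line difference was 1.00 ± 0.062 (FDR 5.42e-06) in DMSO and 0.70 ± 0.061 (FDR 3.31e-05) in entinostat. It contains LOC100653515 on the same strand, which had 127 to 487 counts.

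TIMP3, which is bound to the matrix and also inhibits ADAMTS and ADAM proteases, went the other way, at 49.3 and 37.2 CPM in the BRCA1+ DMSO libraries and 43.2 and 36.2 with entinostat, and at 14.9 and 8.83 in the BRCA1-null DMSO libraries and 11.4 and 7.49 with entinostat. All BRCA1-null libraries were below all BRCA1+ libraries, with a log2 difference of -1.88 ± 0.24 (FDR 0.000301) in DMSO and -2.05 ± 0.26 (FDR 0.000249) in entinostat. TIMP4 was rare, with 1 to 36 counts, and was called in neither line comparison, at 1.08 ± 0.97 with an FDR of 0.403 in DMSO and 0.38 ± 0.57 with an FDR of 0.641 in entinostat. TIMP1, TIMP3 and TIMP4 lie within SYN1, SYN3 and SYN2 on the opposite strand. The counts were 15 to 64 for SYN1 and 0 to 20 for SYN3, far under those of their TIMP, and 75 to 166 for SYN2, more than those of TIMP4.

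Entinostat was then compared with DMSO within each line, to see which of these genes respond to the deacetylase inhibitor. In BRCA1+ cells 8 of 34 genes changed (23.5%), 7 higher and 1 lower, beside 14.1% of all genes (8.15% higher and 6% lower). In BRCA1-null cells 7 changed (20.6%), 5 higher and 2 lower, beside 10.8% of all genes (7.57% higher and 3.19% lower). MMP11, MMP15, MMP17 and TIMP2 were higher with entinostat in both lines, 50% of the 8 BRCA1+ calls and 57.1% of the 7 BRCA1-null calls, beside 48.4% and 63.6% for the calls over all genes. The MMPs that passed were all higher, 5 of 13 in BRCA1+ and 3 of 13 in BRCA1-null cells. Treated and untreated libraries did not overlap for 57% of all genes in BRCA1+ and 54.7% in BRCA1-null cells. The median log2 difference of the 34 genes was 0.28 and 0.17, against 0.000412 and 0.02 over all genes. Counts of calls depended on single libraries in both lines, among these genes and over all genes alike.

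**Figure D4:**
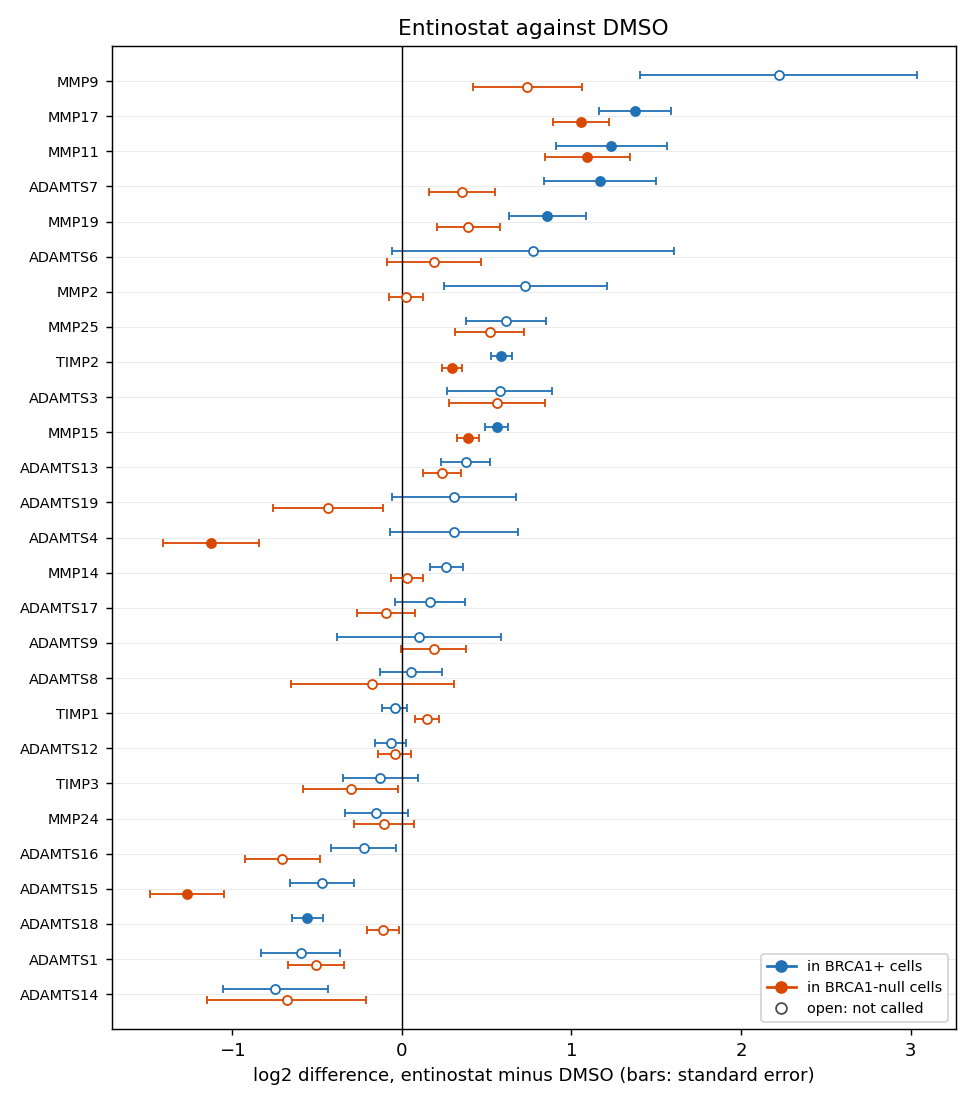
Log2 difference between entinostat and DMSO with its standard error, in BRCA1+ (blue) and BRCA1-null cells (orange), for the 27 genes at 1 CPM or more in a group, where filled points passed an FDR of 0.05. MMP17, MMP11, TIMP2 and MMP15 have filled points to the right of 0 in both lines. ADAMTS4 lies on opposite sides of 0 in the 2 lines, as do ADAMTS8, ADAMTS17, ADAMTS19 and TIMP1 with open points.

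MMP17 rose by 1.38 ± 0.21 (FDR 0.00489) in BRCA1+ cells and 1.06 ± 0.16 (FDR 0.00659) in BRCA1-null cells on the log2 scale, and every entinostat library was above every DMSO library of its line. The BRCA1+ call was lost without BRCA1+ entinostat replicate 2 (FDR 0.0571). MMP11, or stromelysin-3, which has little activity on most matrix proteins, was at 0.625 and 0.479 CPM in the BRCA1+ DMSO libraries and 1.29 and 1.29 with entinostat, and at 1.03 and 0.754 in the BRCA1-null DMSO libraries and 1.66 and 2.13 with entinostat. It was higher with entinostat by 1.24 ± 0.33 (FDR 0.0362) in BRCA1+ and 1.09 ± 0.25 (FDR 0.0279) in BRCA1-null cells, with calls lost in 5 of 15 alternatives (largest FDR 0.195) and 7 of 15 alternatives (largest FDR 0.160), among them leaving out any 1 BRCA1+ library for the first and BRCA1-null control replicate 2 or any 1 of the 4 entinostat libraries for the second. MMP15 was higher by 0.56 and 0.39, and its call in BRCA1-null cells was lost without BRCA1-null control replicate 2 or BRCA1-null entinostat replicate 1 (FDR up to 0.0652). Its BRCA1+ call was kept in all 15 alternatives.

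TIMP2 was higher with entinostat by 0.59 ± 0.062 (FDR 0.000931) in BRCA1+ and 0.30 ± 0.06 (FDR 0.0176) in BRCA1-null cells. The BRCA1+ call was kept in all 15 alternatives, and the BRCA1-null call was lost in 4 of 15 alternatives (largest FDR 0.117), among them leaving out BRCA1-null control replicate 2 or either BRCA1-null entinostat library. TIMP1, TIMP3 and TIMP4 passed in neither line. TIMP1 differed by -0.04 ± 0.073 (FDR 0.764) and 0.15 ± 0.071 (FDR 0.203). TIMP3 differed by -0.13 ± 0.22 (FDR 0.766) and -0.30 ± 0.28 (FDR 0.539), its treated and untreated libraries overlapping in both lines. TIMP4, with 1 to 36 counts, differed by 2.06 ± 0.86 (FDR 0.149) and 1.36 ± 0.63 (FDR 0.201).

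In BRCA1+ cells MMP19 (0.86), ADAMTS7 and MMP16 were also higher and ADAMTS18 lower (-0.56) on the log2 scale. ADAMTS7 differed by 1.17 ± 0.33 (FDR 0.0466) and MMP16, a membrane-type enzyme under 1 CPM with 11 to 40 counts, by 1.52 ± 0.44 (FDR 0.0498). ADAMTS18 was kept in all 15 alternatives, while MMP19 was lost in 6 of 15 alternatives (largest FDR 0.314), ADAMTS7 in 6 of 15 alternatives (largest FDR 0.210) and MMP16 in 8 of 14 alternatives (largest FDR 0.252). Leaving out BRCA1+ entinostat replicate 2 or either BRCA1+ control library ended each of these 3 calls. Leaving out BRCA1+ entinostat replicate 1 ended those of ADAMTS7 and MMP16, either BRCA1-null entinostat library those of MMP19 and MMP16, and either BRCA1-null control library that of ADAMTS7.

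In BRCA1-null cells ADAMTS15 and ADAMTS4 were lower with entinostat and ADAMTS10 higher. ADAMTS15 differed by -1.27 ± 0.22 (FDR 0.00948) and was kept in all 15 alternatives. ADAMTS4 differed by -1.13 ± 0.28 (FDR 0.0380), and the call was lost in 9 of 15 alternatives (largest FDR 0.188), among them leaving out any single library other than BRCA1-null control replicate 1. ADAMTS10 had 3 and 0 counts in the BRCA1-null DMSO libraries and 19 and 17 with entinostat, a ratio of 13.5 with a 95% counting interval of 4.27 to 68.6. Only those entinostat libraries gave it enough reads for a test, so its FDR is given as description. Its fitted log2 difference was 3.64 ± 0.68 (FDR 0.00735), and it was 7.16 without BRCA1-null control replicate 1 and 2.57 without BRCA1-null control replicate 2. The call was lost when only the groups compared were fitted (FDR 0.0613), and DESeq2 gave it no FDR. In BRCA1+ cells ADAMTS10 had 1 and 1 counts in DMSO and 3 and 3 with entinostat and was not called.

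Whether the response to entinostat differed between the lines was tested as the interaction, the effect in BRCA1-null minus that in BRCA1+ cells. None of the 34 genes passed by edgeR, with 0 called among all 17714 genes, and none of the 34 passed by DESeq2, which called 11 of all genes. At an unadjusted p under 0.05 there were 4 of the 34, namely ADAMTS18 (0.45), TIMP2 (-0.29), ADAMTS4 (-1.43) and ADAMTS15 (-0.79), each with an FDR of 0.967. A call in one line and not in the other, as for MMP19, ADAMTS7 or ADAMTS10, is therefore not shown to be a difference between the lines.

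A cluster of 9 MMP genes on 11q22 (chr11:102391239-102826463), which holds the collagenases MMP1, MMP8 and MMP13, the stromelysins MMP3 and MMP10, the matrilysin MMP7, the macrophage elastase MMP12, and MMP20 and MMP27, was nearly silent in all 8 libraries. No gene of it exceeded 45 counts in a library. A count of 0 allows up to 3 counts, or 0.0552 to 0.0946 CPM, for counting error only. MMP10 had the most reads, with 4 and 8 counts in the BRCA1+ DMSO libraries and 5 and 8 with entinostat, and 17 and 12 in the BRCA1-null DMSO libraries and 45 and 11 with entinostat. The 45 counts stood apart from the 11 of the other library of that group, and MMP10 was called in no comparison. MMP7 had 0 counts in all 4 BRCA1+ libraries, 7 and 2 in BRCA1-null DMSO and 15 and 10 in BRCA1-null entinostat. MMP1 had 3 and 1 counts in the BRCA1+ DMSO libraries and 0 and 0 with entinostat, and 10 and 10 in the BRCA1-null DMSO libraries and 13 and 2 with entinostat.

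In entinostat MMP7 was called higher in BRCA1-null cells (FDR 0.00795), at least 3.51-fold against the floor of 3 counts per library, and so was MMP1 (FDR 0.0269), for which no fold is given because 1 of its 2 BRCA1-null libraries, with 2 counts, was under that floor. MMP7 and MMP1 had enough reads for a test only through BRCA1-null libraries, and both had 0 counts in BRCA1+ entinostat. A call could therefore only be higher, and these FDRs are given as description. Without BRCA1+ entinostat replicate 2 the MMP7 call was lost (FDR 0.0520), and the MMP1 call was lost without either BRCA1+ entinostat library or without BRCA1-null entinostat replicate 1 (FDR up to 0.163). MMP8 had 0 or 1 counts, MMP12 and MMP13 likewise, MMP3 had 0 to 2, and MMP20 and MMP27 had 0. Outside the cluster, MMP21 had 0 or 1 counts, MMP26 had 0 and MMP28 had 0 to 4.

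**Figure D5:**
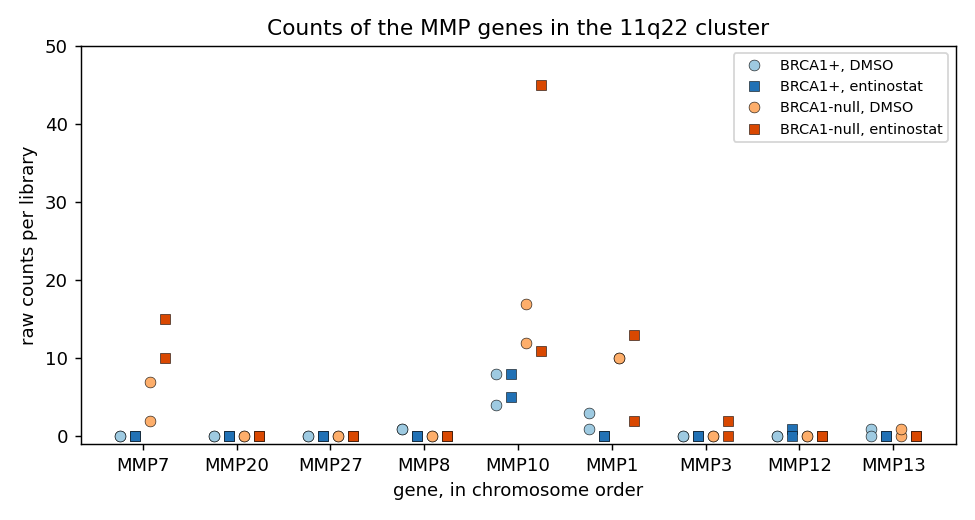
Raw counts per library of the 9 MMP genes of the 11q22 cluster, in chromosome order. All points lie at or under 45 counts, MMP7 has counts in the BRCA1-null libraries alone, and 1 BRCA1-null entinostat library holds the 45 counts of MMP10.

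The nearest tested genes along the chromosome were set beside each gene, up to 25 on each side, to show whether a line difference was shared with the region. Around MMP2 the 50 neighbours had a median log2 difference of -0.09 in DMSO, with 8 called higher and 6 lower, and around ADAMTS9 a median of 0.03, with 10 higher and 10 lower. No neighbour of either was higher by as much. Around ADAMTS6, 33 of 50 neighbours were lower and 3 higher, with a median of -0.56, while ADAMTS6 itself was higher by 4.13. TIMP2 (0.38, 27 higher and 2 lower), ADAMTS1 and ADAMTS5 (0.51, 24 higher and 2 lower), ADAMTS7 (0.34, 24 higher and 7 lower), MMP14 (0.26, 21 higher and 2 lower), MMP17 (0.25, 18 higher and 3 lower), ADAMTS13 (0.13, 17 higher and 2 lower) and ADAMTS17 (0.36, 13 higher and 3 lower) lay in regions where most called neighbours were higher too. Over all genes tested, 21.1% were called higher and 21% lower in DMSO. Neighbours higher by at least as much as the gene itself numbered 11 for TIMP2, 9 for ADAMTS13, 7 for ADAMTS17, 5 for MMP14 and 4 for MMP17. They numbered 3 for ADAMTS1 and 1 each for ADAMTS5 and ADAMTS7. Around TIMP3 the median was 0.02, with 11 higher and 5 lower. The 37 neighbours of ADAMTS8 had a median of 0.05, with 8 higher and 7 lower, and 0 were lower by as much.

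Other genes of the pathway were taken from lists of 64 genes, of which 57 were tested: the plasminogen activator system, ADAM proteases, ADAMTS-like proteins, activators and other inhibitors, matrix substrates, and AP-1 and ETS factors. In DMSO 26 were higher and 10 lower in BRCA1-null cells (63.2% called, beside 42.2% of all genes), and in entinostat also 26 and 10 (beside 39.4%). Of the plasminogen activator system, which makes the plasmin that activates several MMP precursors, 5 of 6 tested genes were higher and 0 lower in both. The activator gene PLAT differed by 1.09 ± 0.25 (FDR 0.00672) in DMSO, a call lost without BRCA1+ control replicate 2 (FDR 0.0574), and the inhibitor gene SERPINE2 by 1.16 ± 0.13 (FDR 0.000110). ADAM proteases split into 4 higher and 2 lower of 10, led by ADAM8 (5.38 ± 0.15, FDR 7.88e-08, from 0.683 to 28.2 CPM), with ADAM19 at 1.09 ± 0.12 (FDR 0.000141).

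Of the 11 activators and other inhibitors, 6 were higher and 2 lower in DMSO. SPOCK1, a proteoglycan that can regulate MMPs, differed by 2.77 ± 0.31 (FDR 0.000123) (3.57 without BRCA1+ control replicate 1), LRP1, the receptor that clears MMPs and TIMPs, by 2.66 ± 0.26 (FDR 5.90e-05), and the convertase PCSK6 by 1.09 ± 0.12 (FDR 0.000110), whereas RECK, a membrane-anchored inhibitor of MMPs, was lower, at -1.12 ± 0.14 (FDR 0.000236). ADAMTS-like proteins split into 2 higher and 3 lower of 6. Of 12 tested matrix substrates, 3 were higher and 2 lower (41.7% called, near the 42.2% of all genes tested). FBN2 (fibrillin-2) was among the lower ones, at -2.79 ± 0.11 (FDR 4.65e-07). AP-1 and ETS factors had 6 higher and 1 lower of 12, with FOSL1 at 1.89 ± 0.15 (FDR 1.70e-05) and ETS1 at 1.18 ± 0.12 (FDR 6.83e-05).

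With entinostat 10 of the 57 were higher and 4 lower in BRCA1+ cells (24.6%, beside 14.1% of all genes), and 11 higher and 0 lower in BRCA1-null cells (19.3%, beside 10.8%). PLAT, the gene for tissue plasminogen activator, was higher in both, by 1.51 ± 0.25 (FDR 0.00586) in BRCA1+ and 1.37 ± 0.22 (FDR 0.00689) in BRCA1-null cells. ADAM19 was also higher in both, by 1.55 ± 0.12 (FDR 0.000328) and 0.84 ± 0.10 (FDR 0.00260), and so was LRP1, by 1.51 ± 0.30 (FDR 0.0121) and 0.71 ± 0.18 (FDR 0.0394). The LRP1 calls were lost in 3 of 15 alternatives in BRCA1+ cells (without BRCA1+ control replicate 2 or either BRCA1+ entinostat library, FDR up to 0.0912) and in 5 of 15 in BRCA1-null cells (either BRCA1+ entinostat library, BRCA1-null control replicate 2 or BRCA1-null entinostat replicate 1 left out, or only the groups compared fitted, FDR up to 0.225). The counts of pathway genes called with entinostat depended on single libraries in both lines, as did those over all genes.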

How the data were processed

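Poly(A) RNA was sequenced from 8 libraries of UWB1.289 cells (BRCA1-null or BRCA1+, DMSO or 0.5 uM entinostat for 24 h), and the sample titles gave each library its group and replicate number. The authors aligned reads to hg19 with TopHat 2 and obtained gene counts with NGSUtils, and they deposited raw counts per gene with no normalization. The handling of strand and of reads with several positions is not given in the sources used here. The 1 entry without a gene name held 0 counts. Genes, lists and alternatives were chosen with earlier results of these data known.

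From the deposited counts, CPM and RPKM were computed with library sizes scaled by TMM, RPKM with the gene lengths of the same table. The function filterByExpr, given the 4 groups, kept 17714 of 25369 genes, and 1 quasi-likelihood model with 4 group means was fitted to the 8 libraries, which left 4 residual degrees of freedom (edgeR 4.0.16, R 4.3.3, legacy set to FALSE). Tests were two-sided, and a gene was called at a Benjamini-Hochberg adjusted p (FDR) under 0.05. The test was checked on simulated data for the comparison of the lines in DMSO, with changes placed in the more abundant genes and the same spread for every gene. That check does not cover rare genes, spread that differs between genes, or the entinostat comparisons. Where every library of a group had 0 counts, a fold was computed against a floor of 3 counts per library and is a lower bound. For called genes with 1 to 3 counts in a library of the lower group, the ratio of summed counts is given with an exact 95% binomial interval. Floors and intervals cover counting error only, since reads without molecular identifiers are not independent molecules, and 3 counts were 0.0552 to 0.0946 CPM.

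By rule every gene of the families was named, with library values where it reached 1 CPM in a group and was called at least once and full statistics for called differences of at least 1 on the log2 scale and for TIMPs, and at most 4 genes per pathway list with a called difference of at least 1 and a mean of at least 3 on the log2 CPM scale. Of the pathway genes this rule names, 1 is not reported here. Alternatives were upper-quartile or DESeq2 size factors, omission of the filter, a filter of 1 CPM in 2 libraries, the DESeq2 1.42.0 Wald test, a replicate block, a fit to only the groups compared, and leaving out each library. No 2 libraries of a group agreed within sampling noise, and every library was used.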

Additional observations from a re-analysis of the deposited data

Results flagged for a closer look

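Among the MMP, ADAMTS and TIMP genes tested, ADAMTS4 was the 1 gene whose libraries moved in opposite directions in the lines: both BRCA1+ entinostat libraries lay above both BRCA1+ DMSO libraries (0.978 and 0.884 against 0.675 and 0.806 CPM), and both BRCA1-null entinostat libraries lay below both BRCA1-null DMSO libraries (1.17 and 0.646 against 1.74 and 2.26 CPM). The entinostat effect in BRCA1-null minus that in BRCA1+ cells was -1.43 on the log2 scale. The edgeR test of that difference gave an unadjusted p of 0.0145 and an adjusted p of 0.967, so it was not called. Its counts were 27 to 123 per library. Treated and untreated libraries did not overlap for 57% of all genes in BRCA1+ and 54.7% in BRCA1-null cells. How many of all genes moved in opposite directions by this rule was not counted, so the pattern does not set ADAMTS4 apart.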

How the results depend on the processing

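Of the 57 calls of MMP, ADAMTS and TIMP genes, 34 were kept in all 15 alternatives, 1 (MMP9 between the lines in DMSO) in the 14 that tested it, 22 were lost in at least 1 (13 of them only when a library was left out), and 0 changed direction. The filter of 1 CPM in 2 libraries left 8 of the 57 untested, and DESeq2 gave no adjusted p for 2 of the differences. Of the 33 calls of the 11 named pathway genes, 24 were kept in all 15 alternatives, 9 were lost in at least 1 and 0 changed direction. Counts of MMP, ADAMTS and TIMP genes called with entinostat varied most. Leaving out 1 library gave 3 to 8 in BRCA1+ cells (8 with all libraries) and 3 to 7 in BRCA1-null cells (7 with all), and fitting only the groups compared gave 3 in BRCA1-null cells. For the pathway lists, leaving out 1 library gave 4 to 16 in BRCA1+ cells (14 with all) and 5 to 10 in BRCA1-null cells (11 with all), and fitting only the groups compared gave 6 in BRCA1-null cells. Fewer libraries leave fewer residual degrees of freedom, and the cause of each change was not tested. Between the lines, leaving out 1 library gave 19 to 23 of these genes in DMSO (22 with all) and 15 to 22 in entinostat (20 with all), and 28 to 36 and 25 to 36 pathway genes (36 with all in both). Over all genes, fitting only the groups compared called 693 instead of 1906 for entinostat in BRCA1-null cells, and without BRCA1+ entinostat replicate 2 the call count for entinostat in BRCA1+ cells was 679 instead of 2505. With upper-quartile factors 72.5% of the calls for entinostat in BRCA1+ cells were higher, against 57.6%. Differences that changed sign were all uncalled. For TIMP4 between the lines in entinostat, leaving out 1 library gave -0.72 (without BRCA1-null entinostat replicate 1) to 0.95. For TIMP3 with entinostat it gave -0.32 to 0.086 in BRCA1+ cells (the highest without BRCA1+ control replicate 1) and -0.64 to 0.082 in BRCA1-null cells (the highest without BRCA1-null control replicate 1). For TIMP1 with entinostat in BRCA1+ cells, upper-quartile factors gave 0.0048. At these depths genes of a few counts, such as MMP1, MMP7 and ADAMTS10, are limited by counting error.

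The labels give the groups the same replicate numbers but do not say that a number marks a shared day or batch, and each comparison holds only 2 pairs, so a pairing is not established. Deviations of same-numbered libraries from their group means correlated at 0.116 to 0.447 over genes in the 6 pairs of groups. With the replicate number as a block, 24 MMP, ADAMTS and TIMP genes were called between the lines in DMSO and 25 in entinostat instead of 22 and 20, and with entinostat 11 in BRCA1+ cells (ADAMTS14, MMP14 and ADAMTS1 added) and 9 in BRCA1-null cells (ADAMTS1 and ADAMTS16 added) instead of 8 and 7. The pathway genes called with entinostat were 25 in BRCA1+ and 23 in BRCA1-null cells instead of 14 and 11, and over all genes 4319 and 3641 were called instead of 2505 and 1906. For the line comparisons, the block called 8954 of all genes in DMSO and 8394 in entinostat instead of 7472 and 6973. None of the 57 and 33 calls above was lost under the block.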

Other observations

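ADAMTS7P1, a near-identical copy of ADAMTS7, had 144 to 720 counts per library, and all 8 counts were multiples of 24. Among the 13010 genes with at least 800 counts in all, 68 had counts that shared a divisor over 1, and 0 of the 19 MMP, ADAMTS and TIMP genes checked did. ADAMTS7 itself had 29 to 167 counts.

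Several rare genes had their highest count in BRCA1-null entinostat replicate 1. That library held 45 counts of MMP10 and 36 of TIMP4, where the other library of its group held 11 and 10.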
